A study of Mus musculus with 11 samples.

Results

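The proteasome genes were taken as every gene of the deposited normalised expression table whose symbol starts with Psm, a letter from a to g and a number, as read in conventional type 1 dendritic cells (cDC1s) sorted from B16 melanoma. This gave 49 of the 11118 genes in that table, and all 49 passed the filter on low counts into the 10951 genes tested. By role they were 7 subunits of the alpha ring and 4 non-catalytic beta subunits of the 20S core, the 3 constitutive catalytic subunits Psmb5, Psmb6 and Psmb7, the 3 immunoproteasome subunits Psmb8, Psmb9 and Psmb10, 9 subunits of the 19S base, 8 of the 19S lid, 3 base assembly chaperones, 4 core assembly chaperones, 5 activator genes, 1 inhibitor, the testis-restricted Psma8, and Psmc3ip, which matches by symbol and is a partner protein of meiotic recombination and not a proteasome subunit. Psmb11, the thymus-specific catalytic subunit, is in the count table alone and had 0 counts in every pool, which allows up to 3 counts in each.

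The proteasome degrades ubiquitin-tagged proteins. Its core is a barrel of stacked alpha and beta rings in which only a few beta subunits cut peptide bonds, the 19S cap of base and lid recognises, unfolds and feeds the substrate, and smaller activators such as PA28 open the barrel without ubiquitin. Interferon-gamma is known to induce Psmb8, Psmb9 and Psmb10, which replace Psmb5, Psmb6 and Psmb7 in newly built cores, as well as both PA28 subunits, and dendritic cells are known for their high immunoproteasome content and for loading the peptides so made onto MHC class I.

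The bulk RNA-seq series holds 11 pools of cDC1s, each from 2 to 4 B16-bearing mice of 1 genotype. The 4 control pools carried floxed Xbp1 alleles with no Cre (XBP1 fl/fl), and control replicate 4 also carried floxed Ern1 alleles (IRE1 fl/fl). In the 4 XBP1ΔDC pools the mice were XBP1 fl/fl with CD11c-CRE, and in the 3 XBP1ΔDCIRE1truncDC pools they were XBP1 fl/fl, IRE1 fl/fl with CD11c-CRE. XBP1 is the transcription factor made after the endonuclease IRE1, the product of Ern1, splices its RNA in the unfolded protein response, and the truncation removes the RNase domain of IRE1. The CD11c promoter drives Cre in all CD11c-expressing cells and not in cDC1s alone. Per the methods of the study the mice were of both sexes and some weeks to a few months old, and no age is given by pool. The comparisons ask whether the proteasome genes of tumor cDC1s depend on XBP1 and, without XBP1, on the IRE1 RNase.

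The pools held 21089065 to 26843486 counts in genes. Xbp1 was between 244 and 271 CPM (counts scaled to library size and by TMM, a correction for composition) in control, between 130 and 165 in XBP1ΔDC and between 179 and 236 in XBP1ΔDCIRE1truncDC pools, and fell in XBP1ΔDC against control (log2 fold change -0.74, SE 0.0973, adjusted p = 0.0017, edgeR quasi-likelihood test with Benjamini-Hochberg adjustment). Ern1 was at 14 ± 3.8 CPM in control (SD, n = 4), 12.4 ± 2.48 in XBP1ΔDC (n = 4) and 21.5 ± 4.49 in XBP1ΔDCIRE1truncDC pools (n = 3). These counts are summed over the gene, so they do not read the deleted exons, and Ern1 cannot check the truncation. Summed over 9 cDC1 markers the pools held 12197 to 13584 CPM in control, 10174 to 11601 in XBP1ΔDC and 11039 to 12065 in XBP1ΔDCIRE1truncDC, so both mutant groups lay below every control pool. Without Naaa the sums of the other 8 overlapped, at 8023 to 9228 CPM in control, 7469 to 8704 in XBP1ΔDC and 7819 to 8807 in XBP1ΔDCIRE1truncDC. Of these markers Naaa passed the adjusted threshold against control in both mutant groups, by edgeR (log2 fold change -0.51, adjusted p = 0.000495, and -0.33, adjusted p = 0.0396), while Xcr1, Clec9a and Batf3 had log2 fold changes of 0.01 to 0.08 that did not pass it. Of the 9 markers, 6 were lower than control in XBP1ΔDC and 5 in XBP1ΔDCIRE1truncDC. In each group 2 had an unadjusted p under 0.05 by edgeR, both lower, beside 7.62% and 11.2% of all genes. Itgae was at 1159 ± 77.6 CPM in control, 970 ± 56.8 in XBP1ΔDC and 982 ± 98.3 in XBP1ΔDCIRE1truncDC pools (SD). Summed levels were at most 111 CPM for 7 macrophage markers, 64.5 for 6 melanoma markers (8.61 to 10.4 in XBP1ΔDCIRE1truncDC pools), 62.5 for 5 cDC2 markers, 6.69 for 6 T and NK cell markers and 1.99 for 4 B cell markers, with Pax5 and Clec4a4 at 0 in all pools. The part of these cells in the values below was not tested, and in bulk RNA fewer cells of a type cannot be told from less RNA per cell.

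Psmb8 and Psmb9 lie in the MHC class II region of chromosome 17 beside Tap1 and Tap2, the transporter that carries proteasome products into the endoplasmic reticulum, and the block Psmb9, Tap1, Psmb8, Tap2 spans 34.34 kb (GRCm38, chr17:34181987-34216321, GENCODE vM21). Psmb9 and Tap1 run in opposite directions from RefSeq start sites 226 bases apart. Psmb10 lies on chromosome 8 (chr8:105935735-105938444, minus strand), and Psme1 (chr14:55578123-55581529, plus strand) and Psme2 (chr14:55587441-55591113, minus strand) lie side by side on chromosome 14. The 250 bases before the RefSeq start site of these 5 interferon-inducible genes are printed here because the interferon-gamma response is known to act on them, 5′ to 3′ on the strand of the gene, from RefSeq on GRCm38.p6. The windows are chr17:34197945-34198194 for Psmb8, chr17:34187331-34187580 for Psmb9, chr8:105938393-105938642 for Psmb10, chr14:55578244-55578493 for Psme1 and chr14:55591102-55591351 for Psme2. RefSeq and GENCODE place some of these starts differently. Capitals mark the match to a searched motif.
Psmb8: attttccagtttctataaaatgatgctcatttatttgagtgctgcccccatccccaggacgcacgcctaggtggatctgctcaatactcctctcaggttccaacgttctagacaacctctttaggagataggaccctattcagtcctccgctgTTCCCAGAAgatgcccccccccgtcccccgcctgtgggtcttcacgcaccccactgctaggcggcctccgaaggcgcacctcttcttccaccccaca
Psmb9: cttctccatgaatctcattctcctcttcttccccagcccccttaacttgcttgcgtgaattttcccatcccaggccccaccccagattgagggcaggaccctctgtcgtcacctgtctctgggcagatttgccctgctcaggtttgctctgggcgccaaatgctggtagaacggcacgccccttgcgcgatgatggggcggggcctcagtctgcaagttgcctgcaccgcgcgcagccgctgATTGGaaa
Psmb10: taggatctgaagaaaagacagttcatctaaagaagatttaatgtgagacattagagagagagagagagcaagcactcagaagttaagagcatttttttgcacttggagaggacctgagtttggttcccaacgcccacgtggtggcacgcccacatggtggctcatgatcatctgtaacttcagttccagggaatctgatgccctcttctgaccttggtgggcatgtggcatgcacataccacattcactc
Psme1: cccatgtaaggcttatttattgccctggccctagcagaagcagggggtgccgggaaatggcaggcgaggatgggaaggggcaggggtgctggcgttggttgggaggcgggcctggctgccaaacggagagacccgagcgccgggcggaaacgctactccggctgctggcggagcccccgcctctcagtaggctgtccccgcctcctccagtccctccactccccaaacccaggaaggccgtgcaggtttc
Psme2: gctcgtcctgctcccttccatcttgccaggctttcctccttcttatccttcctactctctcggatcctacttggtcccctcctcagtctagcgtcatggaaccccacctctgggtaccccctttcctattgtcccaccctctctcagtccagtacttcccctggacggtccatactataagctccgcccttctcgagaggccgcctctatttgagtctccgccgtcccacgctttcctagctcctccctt
The motifs searched, on both strands, were the interferon-gamma activated site (GAS) TTCNNNGAA, an interferon-stimulated response element (ISRE), an NF-kB motif and the CCAAT box CCAAT. Psmb8 held a GAS match from 97 to 89 bases before its start, and Psmb9 a CCAAT match on the strand opposite to the gene, written ATTGG, from 8 to 4 bases before its start. No searched letters were found in the Psmb10, Psme1 and Psme2 windows, which says only that they are not in these windows. Among 41 proteasome genes with a RefSeq promoter used here, 2 held the GAS letters (Psmb8 and Psmg1), 3 the interferon element (Psmb3, Psmd4 and Psmd9), 0 the NF-kB letters and 14 CCAAT. Over all 32851 promoter windows, 7.02% held GAS, 2.98% the interferon element, 1.41% NF-kB and 33.9% CCAAT. A match of this kind is a description of the letters and not a binding site.

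Read per kilobase, Psmb8, Psmb9 and the PA28 genes were among the most abundant proteasome transcripts of these cDC1s, a description with no test. Per kilobase of exon union, which is every base that any annotated transcript of the gene covers, Psmb8 stood at 439 CPM per kb over the 11 pools, Psme2 at 343 and Psme1 at 319, ranks 1, 2 and 3 of 49. Psmb9 at 186 CPM per kb had rank 5, behind the core subunit Psmb2 at 194, and Psmb10 at 95.3 had rank 10. The 11 alpha and non-catalytic beta subunits ran from 40.7 for Psma3 to 194 for Psmb2, with a median of 82.1 CPM per kb. The lid subunits ran from 18.4 to 68.1 CPM per kb and the base subunits from 25.2 to 90.2. The assembly chaperones of the core (7.02 to 44.9 CPM per kb) and of the base (3.65 to 26.3), the inhibitor Psmf1 (9.35) and the nuclear activator Psme4, known as PA200 (5.49), reached down to lower levels, although the highest chaperone, Psmg4 at 44.9, stood above 8 of the core, base and lid subunits outside the catalytic pairs. With the length of the principal transcript instead, Psmb8 (913 CPM per kb), Psme1 (634), Psme2 (628) and Psmb9 (502) held ranks 1 to 4, Psmb10 (124) had rank 17, and the lid and base lay between 39.5 and 138. Psma8 was at 0.747 CPM per kb of exon union, from 7 to 101 counts in a pool.

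**Figure D1:**
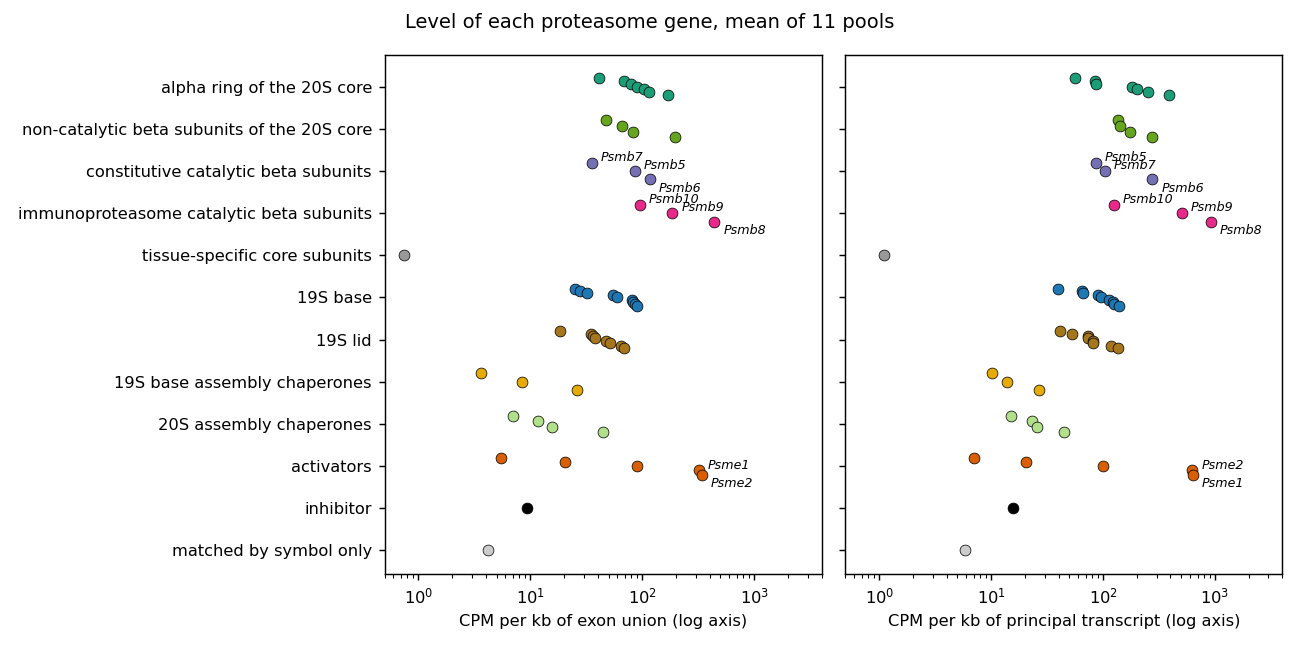
Mean level of each of the 49 proteasome genes over the 11 pools, by role, in CPM per kb of exon union (left) and per kb of principal transcript (right), both on log axes. Each point is 1 gene, and Psmb8, Psme1 and Psme2 lie to the right of every core, lid and base subunit in both panels.

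Each immunoproteasome subunit was read above the constitutive subunit it replaces, in every pool. Psmb8, the chymotrypsin-like immunosubunit, gave 16.9 to 20.6 reads for each read of Psmb5 in control, 17.9 to 21.4 in XBP1ΔDC and 17.97 to 20.5 in XBP1ΔDCIRE1truncDC pools. Psmb9, which takes the place of the caspase-like Psmb6, gave 2.98 to 3.63 reads per Psmb6 read in control, 2.71 to 3.07 in XBP1ΔDC and 2.98 to 3.26 in XBP1ΔDCIRE1truncDC pools. Psmb10, which takes the place of the trypsin-like Psmb7, gave 1.13 to 1.46, 1.19 to 1.56 and 1.34 to 1.57 reads per Psmb7 read in the same order. The ranges of the 3 groups overlapped for each pair.

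How far the level per length differed within a pair hung on which length was used. On the log2 scale the Psmb8 to Psmb5 ratio of CPM per kb of exon union was 2.35 ± 0.127 (SD, n = 4) in control, 2.37 ± 0.106 (n = 4) in XBP1ΔDC and 2.36 ± 0.0961 (n = 3) in XBP1ΔDCIRE1truncDC pools. The Psmb9 to Psmb6 ratio was 0.73 ± 0.12, 0.58 ± 0.0789 and 0.67 ± 0.0668, and the Psmb10 to Psmb7 ratio 1.31 ± 0.164, 1.45 ± 0.209 and 1.53 ± 0.119 in the same order. In control this is 5.10-fold for Psmb8, 1.66-fold for Psmb9 and 2.49-fold for Psmb10. With the principal transcript the folds were 10.6, 1.91 and 1.10, and with the coding length 18.4, 3.43 and 1.26. The direction of the group means was the same with each length. With the principal transcript the log2 ratio of Psmb10 to Psmb7 in control was 0.13 ± 0.164 (SD), so that direction does not hold in every pool. No test was made of a ratio over members.

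The catalytic subunits did not pass the test in any comparison. Psmb8 was at 1584, 1473, 1411 and 1389 CPM in control 1 to 4, at 1612, 1517, 1461 and 1281 in XBP1ΔDC 1 to 4, and at 1427, 1649 and 1539 in XBP1ΔDCIRE1truncDC 1 to 3, or 1464 ± 87.4, 1468 ± 139 and 1538 ± 111 CPM (SD, n = 4, 4 and 3). XBP1ΔDC replicate 4 was lowest and XBP1ΔDCIRE1truncDC replicate 2 highest, and all 3 groups overlapped. The log2 fold change of Psmb8 was 0.00 in XBP1ΔDC against control (SE 0.0783, adjusted p = 0.998 by edgeR), 0.07 in XBP1ΔDCIRE1truncDC against control (SE 0.0845, adjusted p = 0.834) and 0.07 in XBP1ΔDCIRE1truncDC against XBP1ΔDC (SE 0.0845, adjusted p = 0.99). The 95% intervals ran from 0.891- to 1.13-fold, 0.925- to 1.19-fold and 0.923- to 1.19-fold.

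Psmb9 was at 685, 644, 661 and 702 CPM in control, 734, 657, 681 and 602 in XBP1ΔDC and 656, 795 and 654 in XBP1ΔDCIRE1truncDC pools. Again XBP1ΔDCIRE1truncDC replicate 2 was the highest and XBP1ΔDC replicate 4 the lowest. Its log2 fold changes were -0.01 (SE 0.0812, edgeR adjusted p = 0.993, interval 0.879- to 1.12-fold), 0.06 (SE 0.0876, adjusted p = 0.877, 0.913- to 1.19-fold) and 0.07 (SE 0.0876, adjusted p = 0.99, 0.92- to 1.2-fold) in the 3 comparisons in the order above. Without XBP1ΔDCIRE1truncDC replicate 2 the contrasts of XBP1ΔDCIRE1truncDC became -0.04 against control and -0.03 against XBP1ΔDC.

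Psmb10 had the largest fold changes of the immunosubunits in the 2 comparisons with control, and missed the threshold in both. It was at 171, 140, 132 and 127 CPM in control, 203, 187, 160 and 136 in XBP1ΔDC and 150, 194 and 185 in XBP1ΔDCIRE1truncDC pools. Control replicate 1 lay above the lowest pools of both mutant groups, so the groups overlapped. The log2 fold change against control was 0.27 in XBP1ΔDC (SE 0.135, unadjusted p = 0.0707, edgeR adjusted p = 0.734, interval 0.982- to 1.47-fold) and 0.31 in XBP1ΔDCIRE1truncDC (SE 0.145, unadjusted p = 0.0557, edgeR adjusted p = 0.462, 0.994- to 1.54-fold). Both contrasts use the same control pools. Between the mutant groups the log2 fold change was 0.04 (SE 0.145, edgeR adjusted p = 0.998, 0.826- to 1.28-fold).

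Of the constitutive subunits, Psmb5 was at 80.2, 87.3, 68.3 and 70.6 CPM in control, 75.2, 78.6, 81.6 and 65.8 in XBP1ΔDC and 72.9, 91.8 and 75.1 in XBP1ΔDCIRE1truncDC pools. Its log2 fold changes were -0.02 (SE 0.108, edgeR adjusted p = 0.988), 0.06 (SE 0.116, adjusted p = 0.914) and 0.09 (SE 0.116, adjusted p = 0.99), with intervals inside 0.836- to 1.26-fold in all 3 comparisons. Psmb6 was at 230, 204, 204 and 193 CPM in control, 239, 222, 251 and 200 in XBP1ΔDC and 201, 257 and 219 in XBP1ΔDCIRE1truncDC pools. Psmb6 gave log2 fold changes of 0.13 (SE 0.096, edgeR adjusted p = 0.854), 0.12 (SE 0.103, adjusted p = 0.75) and -0.01 (SE 0.104, adjusted p = 1). Psmb7 was at 117, 119, 117 and 104 CPM in control, 133, 120, 133 and 114 in XBP1ΔDC and 107, 145 and 118 in XBP1ΔDCIRE1truncDC pools, with log2 fold changes of 0.12 (SE 0.0977, edgeR adjusted p = 0.891), 0.10 (SE 0.105, adjusted p = 0.8) and -0.02 (SE 0.106, adjusted p = 1). The intervals of Psmb6 and Psmb7 lay between 0.841- and 1.27-fold. In all 3 constitutive genes XBP1ΔDCIRE1truncDC replicate 2 was the highest of the 11 pools.

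**Figure D2:**
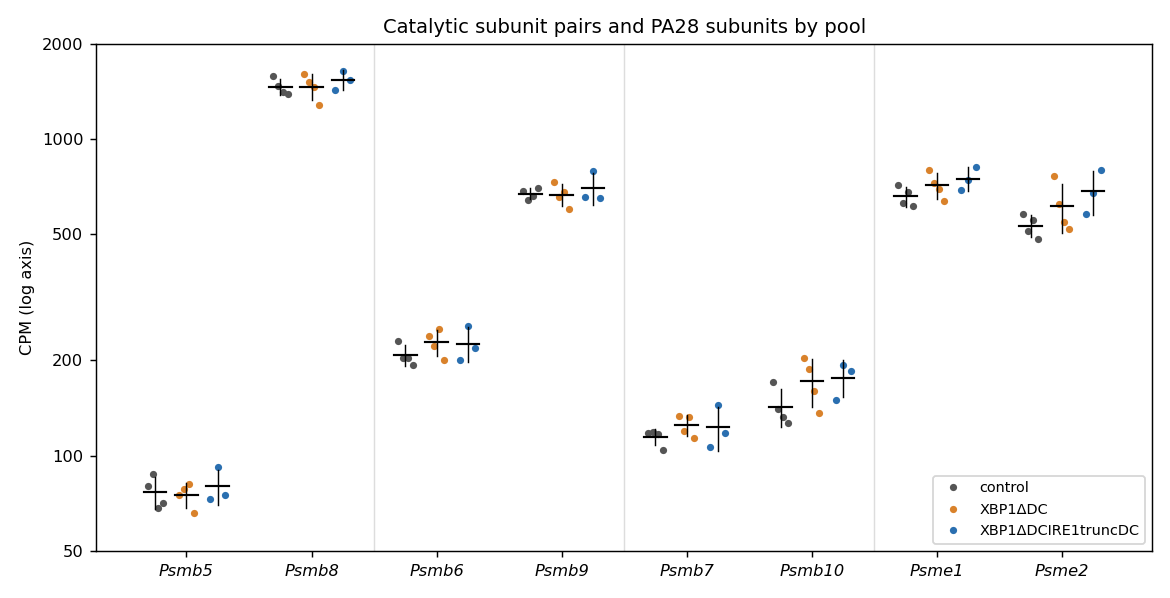
CPM of each immunoproteasome subunit beside the constitutive subunit it replaces, and of the 2 PA28 subunits, in the 11 pools, on a log axis. Points are pools, horizontal bars group means and vertical bars 1 SD (n = 4, 4 and 3), and within each gene the 3 groups overlap except for Psme2 between control (485 to 582 CPM) and XBP1ΔDCIRE1truncDC (582 to 799), whose closest pools are nearly level.

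PA28 is a ring of the products of Psme1 and Psme2, which speeds the release of peptides from the core. Psme2 was at 582, 511, 556 and 485 CPM in control, 763, 625, 548 and 522 in XBP1ΔDC and 582, 677 and 799 in XBP1ΔDCIRE1truncDC pools. The lowest XBP1ΔDCIRE1truncDC pool lay just above the highest control pool, so these groups did not overlap, while XBP1ΔDC overlapped both. Its log2 fold change in XBP1ΔDCIRE1truncDC against control was 0.36 (SE 0.134, unadjusted p = 0.0181, edgeR adjusted p = 0.324, interval 1.05- to 1.57-fold), the smallest p of any proteasome gene in the 3 comparisons. In XBP1ΔDC against control it was 0.20 (SE 0.125, adjusted p = 0.799, 0.956- to 1.39-fold) and between the mutant groups 0.16 (SE 0.134, adjusted p = 0.967, 0.913- to 1.37-fold). Psme2b, a near-identical copy of Psme2 whose reads counting could split between the copies, was at 14.1 to 20.5 CPM and its values are uncertain for that reason. The values of Psme2 could be touched by the same sharing, which was not examined, and these genes are not independent readings.

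Psme1 was at 718, 628, 680 and 615 CPM in control, 802, 728, 694 and 639 in XBP1ΔDC and 691, 744 and 819 in XBP1ΔDCIRE1truncDC pools. The highest pools were XBP1ΔDCIRE1truncDC replicate 3 and XBP1ΔDC replicate 1, as they were for Psme2. The log2 fold changes were 0.12 (SE 0.0843, edgeR adjusted p = 0.862, interval 0.955- to 1.23-fold), 0.19 (SE 0.0908, adjusted p = 0.477, 0.993- to 1.3-fold) and 0.07 (SE 0.0909, adjusted p = 0.99, 0.916- to 1.2-fold). Psme3, the nuclear PA28 gamma, ran from 239 to 292 CPM over the pools.

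Psme4, the nuclear activator PA200, was at 51.9, 48.7, 54.3 and 40.9 CPM in control, 36.1, 44.3, 44.6 and 40.5 in XBP1ΔDC and 47.9, 44.0 and 53.2 in XBP1ΔDCIRE1truncDC pools. Control replicate 4 lay within the range of XBP1ΔDC. The log2 fold change was -0.24 in XBP1ΔDC against control (SE 0.112, unadjusted p = 0.0497, edgeR adjusted p = 0.655) and -0.02 in XBP1ΔDCIRE1truncDC against control.

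Over all 49 genes, 0 passed an adjusted p under 0.05 in XBP1ΔDC against control, where 0.895% of all genes tested did. With edgeR the count at an unadjusted p under 0.05 was 1 (Psme4), against 7.62% of all genes, and with limma voom and DESeq2 it was 0. Groups that did not overlap were found for 1 gene, the base subunit Psmd1 (190 to 198 CPM in control, 202 to 221 in XBP1ΔDC), against 5.31% of all genes. The median log2 fold change of the 49 genes was 0.05, beside 0.00 over all genes, and 34 were higher and 15 lower. The 95% interval lay within 1.5-fold either way for 47 of 49 proteasome genes (95.9%) and for 62.3% of all genes, the exceptions being the weakly read Psma8 and Psmc3ip. The median SE was 0.094 for the 49 genes and 0.15 for all genes. The 49 are also better read than most genes, so these shares, here and below, are a description only.

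In XBP1ΔDCIRE1truncDC against control, 0 of 49 passed an adjusted p under 0.05, where 0.356% of all genes did. At an unadjusted p under 0.05 edgeR counted 2, Psme2 and Psmd4, against 11.2% of all genes, limma voom 2 and DESeq2 4. The share over all genes was taken with edgeR only, so the limma voom and DESeq2 counts have none beside them. Psmd4, the ubiquitin receptor of the base known as Rpn10, was at 158, 165, 151 and 163 CPM in control, 166, 174, 168 and 164 in XBP1ΔDC and 183, 178 and 174 in XBP1ΔDCIRE1truncDC pools. Psmd4 in XBP1ΔDCIRE1truncDC against control gave a log2 fold change of 0.16 (SE 0.0654, unadjusted p = 0.0268, edgeR adjusted p = 0.361, interval 1.02- to 1.24-fold). Groups did not overlap for 5 genes, Psme2, Psme2b, Psmd4, the lid subunit Psmd11 and the base ATPase Psmc1, against 10.1% of all genes. The median log2 fold change of the 49 was 0.07 (-0.003 over all genes), with 39 higher and 10 lower, and the interval lay within 1.5-fold for 44 of 49, or 89.8%, against 56.2% of all genes. Besides Psma8 and Psmc3ip, the interval went past 1.5-fold for Psmb10, Psme2 and Psme2b, on the upper side. Psme2b was read at only 14.1 to 20.5 CPM and, as a near-identical copy of Psme2, does not count as a separate reading.

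In XBP1ΔDCIRE1truncDC against XBP1ΔDC, 0 of 49 passed the adjusted threshold, with 0.0731% of all genes, and 0 passed an unadjusted p under 0.05 with edgeR, limma voom or DESeq2, with 5.29% of all genes by edgeR. The groups did not overlap for 1 gene, Psmc1, against 6.07% of all genes. The median log2 fold change was 0.05, with 32 higher and 17 lower, and the interval lay within 1.5-fold for 48 of 49. The smallest unadjusted p was 0.0668, that of the base ATPase Psmc4 (log2 fold change 0.15). The 3 comparisons share pools, so their counts are not independent of each other.

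**Figure D3:**
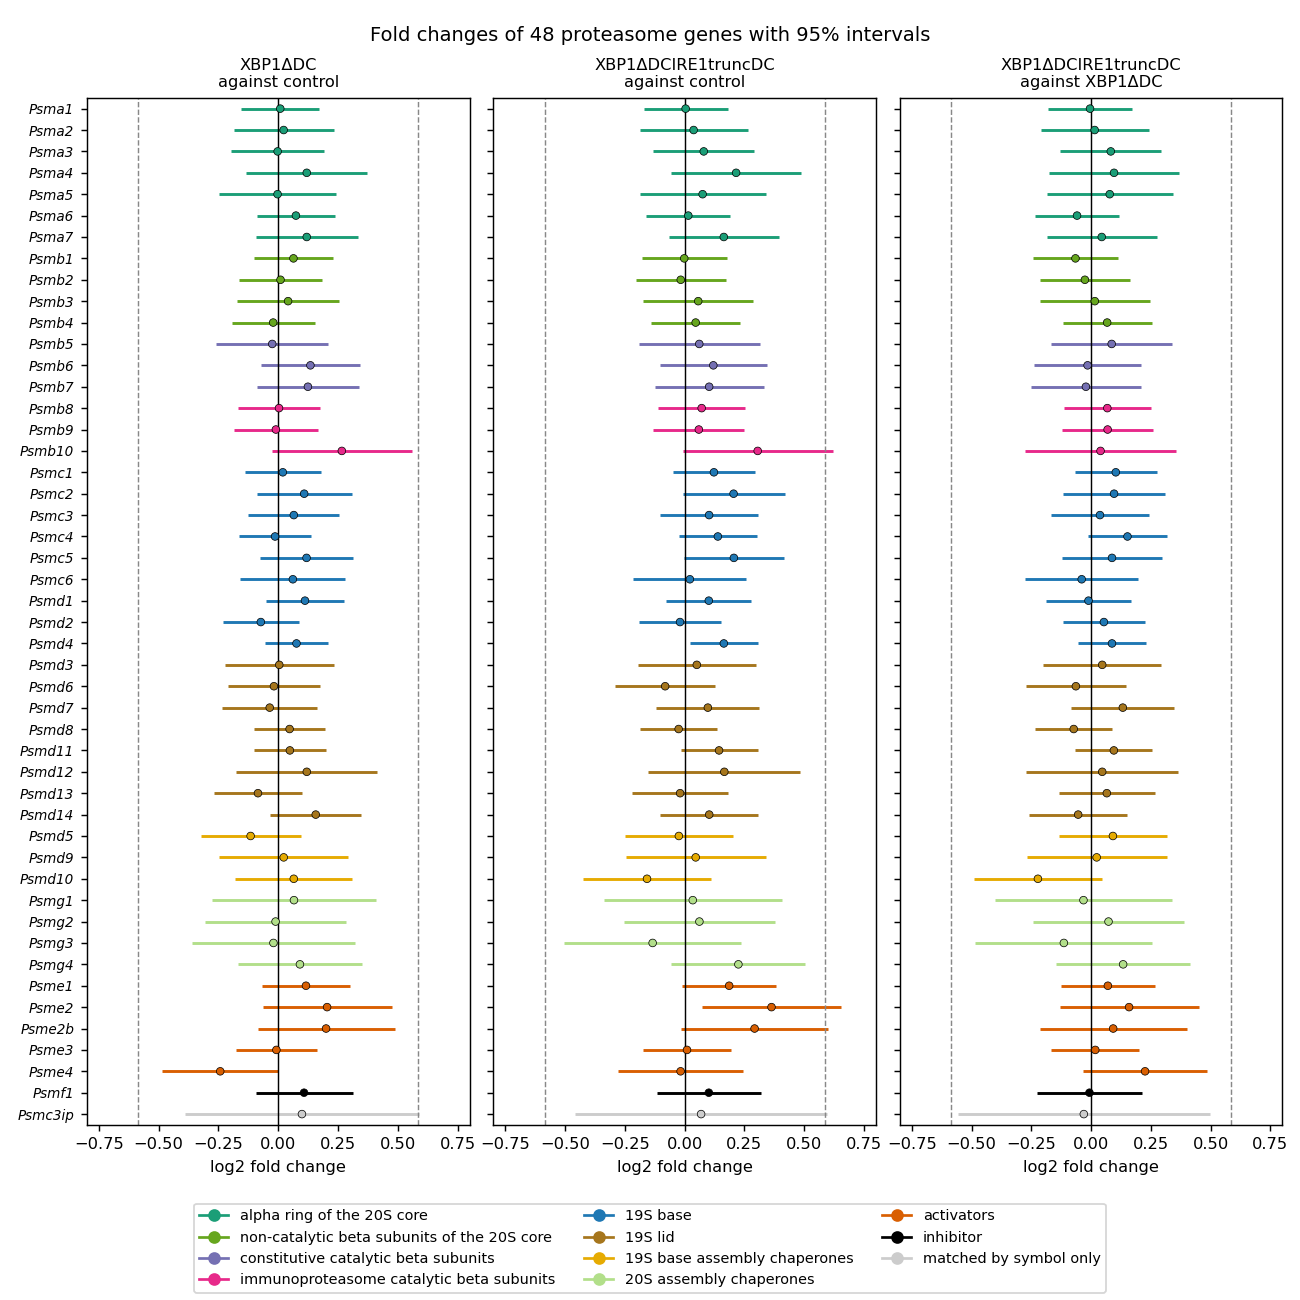
Log2 fold change of 48 proteasome genes in the 3 comparisons, coloured by role, with 95% intervals from the edgeR fit as lines and 1.5-fold marked by dashed lines. Psma8, whose interval runs from -0.90 to 1.78 in the first comparison, is left off. In both outer panels every line shown stays inside the dashed lines, but for Psmc3ip in XBP1ΔDC against control, and in the middle panel Psme2, Psme2b, Psmb10 and Psmc3ip reach past the upper one.

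By role, the 7 alpha subunits, which form the gate of the core, had log2 fold changes between -0.003 and 0.12 in XBP1ΔDC against control, between 0.00 and 0.22 in XBP1ΔDCIRE1truncDC against control and between -0.06 and 0.10 between the mutant groups. The 4 non-catalytic beta subunits lay between -0.02 and 0.06, -0.02 and 0.06, and -0.07 and 0.07. For the 9 base genes, the ATPase ring that unfolds the substrate and its scaffold, the ranges were -0.07 to 0.12, -0.02 to 0.21 and -0.04 to 0.15. The 8 lid genes, which include the deubiquitinase Psmd14, ran from -0.08 to 0.16, -0.08 to 0.17 and -0.07 to 0.13. The core chaperones Psmg1 to Psmg4 ran from -0.02 to 0.09, -0.13 to 0.22 and -0.11 to 0.13, and the base chaperones Psmd5, Psmd9 and Psmd10 from -0.12 to 0.07, -0.16 to 0.05 and -0.22 to 0.09. The 95% interval of every core, base and lid gene other than Psmb10 and Psma8 lay within 1.5-fold in all 3 comparisons.

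The levels of these genes also varied little between pools of 1 genotype. The median within-group SD of log2 CPM was 0.128 over the 49 proteasome genes and 0.219 over all genes tested, a description with no test, since the 49 are also better read than most genes. Leaving out Psma8, the highest pool stood 1.18 times (Psmd8) to 1.75 times (Psmc3ip) above the lowest, with a median of 1.36. It was under 1.5 times for 39 of 48 genes. The other 9 were Psma4, Psmb10, Psmc3ip, Psmd10, Psmd12, Psme2, Psme4, Psmg1 and Psmg2.

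What variation there was ran together across most subunits. XBP1ΔDCIRE1truncDC replicate 2 was the highest of the 11 pools for 32 of 49 genes (65.3%, beside 12.7% of all genes) and lay above the 11-pool mean for 45. Its highest values covered 6 of 7 alpha, 3 of 4 non-catalytic beta, 3 of 3 constitutive catalytic, 2 of 3 immunoproteasome, 7 of 9 base and 5 of 8 lid subunits, but only 1 of 5 activator genes. The median deviation of the 49 genes from their mean was 0.20 on the log2 scale in that pool, and in the other pools it ran from -0.12 in XBP1ΔDC replicate 4, the lowest pool for 14 genes, to 0.08 in XBP1ΔDC replicates 1 and 3. That pool also had the fewest counts, 21089065. Without it, the median log2 fold change of the 49 genes became -0.03 against control and -0.06 against XBP1ΔDC, so the sign of both medians changed when this pool was left out. Psme2 and Psmd4 against control were 0.37 and 0.17 without it. Psme2 leaned on other pools: against control it was 0.24 in XBP1ΔDCIRE1truncDC without replicate 3 (unadjusted p = 0.112, edgeR) and 0.08 in XBP1ΔDC without XBP1ΔDC replicate 1.

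**Figure D4:**
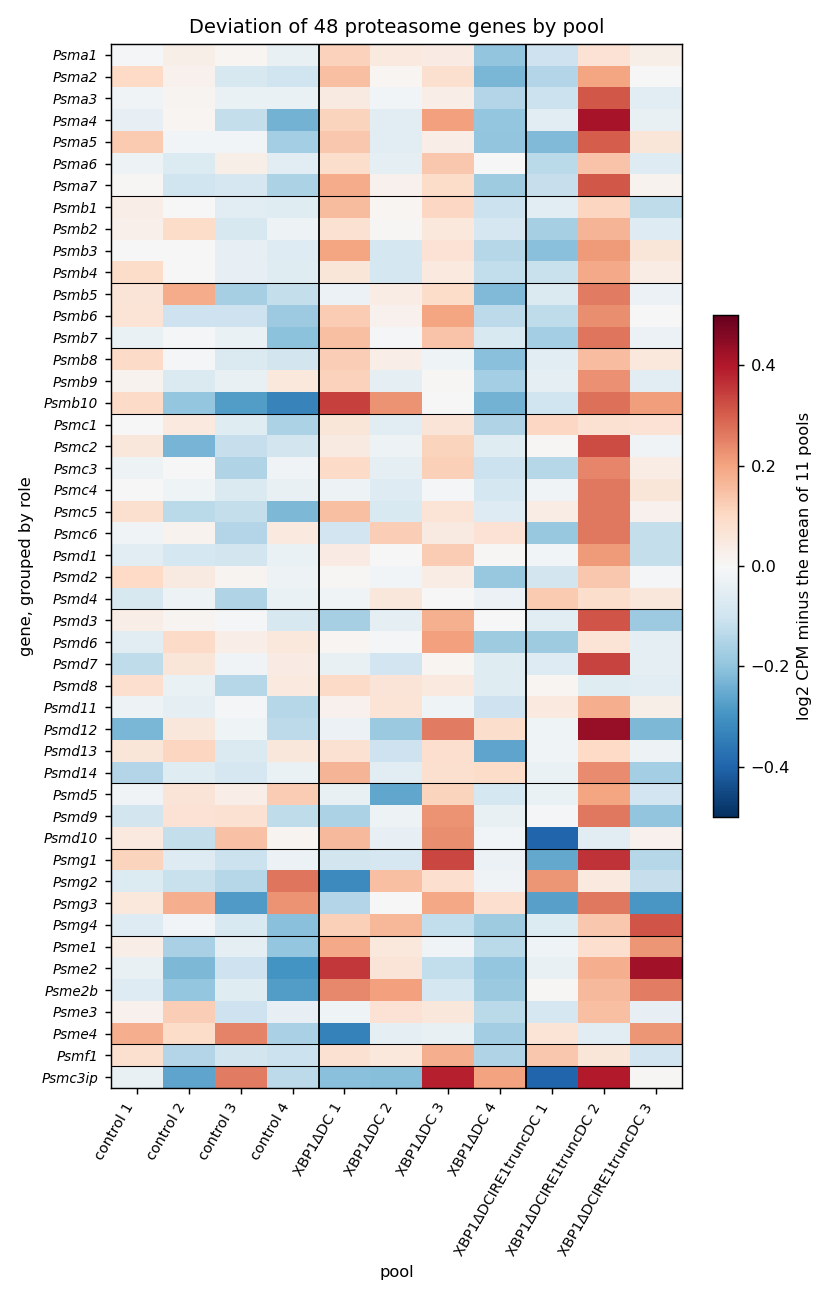
Log2 CPM of 48 proteasome genes in each pool, minus the mean of the gene over the 11 pools, with genes in rows by role and pools in columns by genotype. XBP1ΔDCIRE1truncDC replicate 2 is above the mean for most rows, XBP1ΔDC replicate 4 below it, and Psme1 and Psme2 are highest in XBP1ΔDCIRE1truncDC replicate 3 and XBP1ΔDC replicate 1.

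Summed over 14 genes of the interferon-gamma response, the pools held 1191 to 1487 CPM in control, 1168 to 1957 in XBP1ΔDC and 1351 to 2303 in XBP1ΔDCIRE1truncDC. The highest sum was that of XBP1ΔDCIRE1truncDC replicate 2, the pool highest for 32 of 49 proteasome genes, and XBP1ΔDCIRE1truncDC replicate 3 held 1616. Of the 14, 13 were higher in each mutant group than in control, none past an adjusted p under 0.05 by edgeR, and 0 in XBP1ΔDC and 6 in XBP1ΔDCIRE1truncDC had an unadjusted p under 0.05, beside 7.62% and 11.2% of all genes, with 5 of the 6 higher, Irf1, Gbp2, Gbp4, Gbp5 and Socs1, and Ciita lower. Markers of mature dendritic cells (5 of 6 listed genes tested, Lamp3 being at 0) summed to 2145 to 4323 CPM in control, 2796 to 5755 in XBP1ΔDC and 3947 to 7886 in XBP1ΔDCIRE1truncDC pools, and the highest sums were in XBP1ΔDCIRE1truncDC replicate 3 and XBP1ΔDC replicate 1, the pools highest in Psme1 and Psme2. All 5 (Ccr7, Fscn1, Il12b, Ccl22 and Cd40) had an unadjusted p under 0.05 by edgeR in XBP1ΔDCIRE1truncDC against control, beside 11.2% of all genes, with none past the adjusted threshold. In XBP1ΔDC against control and between the mutant groups 0 of the 5 had an unadjusted p under 0.05, beside 7.62% and 5.29% of all genes. The part of either list in the proteasome gene values was not tested, and only the relation of Ccr7 to 8 proteasome genes across pools is given at the end.

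Downstream of the proteasome, 15 genes of class I antigen processing were read with it. In XBP1ΔDC against control 1 of them passed the adjusted threshold, beside 0.895% of all genes. This was Tapbp, the tapasin that bridges the peptide transporter and empty class I molecules. It was at 1385, 1212, 1216 and 1136 CPM in control, 1003, 951, 695 and 768 in XBP1ΔDC and 1326, 1316 and 1494 in XBP1ΔDCIRE1truncDC pools. All 4 XBP1ΔDC pools lay below every other pool, and the log2 fold change was -0.53 (SE 0.111, edgeR adjusted p = 0.0427) in XBP1ΔDC against control and 0.69 (SE 0.118, adjusted p = 0.0639) in XBP1ΔDCIRE1truncDC against XBP1ΔDC. Tap1, the neighbour of Psmb9, had log2 fold changes of 0.04, 0.12 and 0.08 (SE 0.11, 0.119 and 0.119), and Nlrc5, the class I transactivator, of 0.36, 0.49 and 0.13 (SE 0.165, 0.177 and 0.177), none past the adjusted threshold. In the other 2 comparisons 0 of the 15 passed it. At an unadjusted p under 0.05 by edgeR stood 3, 3 and 2 of the 15, beside 7.62%, 11.2% and 5.29% of all genes.

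Among the proteasome partners without a Psm symbol, which include the ubiquitin receptor Adrm1, the maturation factor Pomp, the deubiquitinase Usp14 and Nfe2l1, the transcription factor of the proteasome genes, 19 of 22 listed genes were tested and 0 passed the adjusted threshold in any comparison by edgeR. At an unadjusted p under 0.05 stood 2 in XBP1ΔDC against control (Ube3c and Akirin2, log2 fold change 0.27 and 0.26), beside 7.62% of all genes. There was 1 in XBP1ΔDCIRE1truncDC against control (Usp14, 0.19), beside 11.2% of all genes, and 1 between the mutant groups (Nfe2l1, 0.27), beside 5.29%. All of them were higher. The median log2 fold changes of the 19 were -0.002, 0.10 and 0.05.

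The genes are spread over 16 chromosomes, and the largest share, 10 of 49, lies on chromosome 11, which also holds Ern1. The 10 include Psmc3ip and Psme2b. The share of all genes on chromosome 11 was not taken, so the 10 cannot be read as particular to this set. Psmc5, an ATPase of the base, is the nearest to Ern1, at 131530 bases (chr11:106256154-106263120 against chr11:106394650-106487852, GRCm38), and the lid subunit Psmd12 lies 991632 bases away. The floxed Ern1 alleles were carried by control replicate 4 and the 3 XBP1ΔDCIRE1truncDC pools. Psmc5 was at 107 CPM in control replicate 4, 114 to 132 in the other controls, 119 to 139 in XBP1ΔDC and 127 to 150 in XBP1ΔDCIRE1truncDC pools, with a log2 fold change of 0.21 in XBP1ΔDCIRE1truncDC against control (SE 0.0965, unadjusted p = 0.0531, edgeR adjusted p = 0.456), and control replicate 4 was the lowest of the 11.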

How the data were processed

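Per the labels and the methods of the study, cDC1s were sorted from B16 tumors pooled from 2 to 4 mice, RNA was pre-amplified and sequenced single-end, and the authors trimmed reads with Trimmomatic 0.39, checked them with FastQC 0.11.8, mapped them with STAR 2.7.3a to mm10 and counted them per gene. The gene annotation is not given in the sources used here. The deposited count table holds raw counts per gene for 24421 genes. The deposited log2 table holds normalised log2 CPM made by the authors with limma 3.42.2, and equals voom values after TMM of the counts within 4.97e-14. It served to choose the 49 members.

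From the counts, 10951 genes passed a filter of over 1 CPM in 4 or more pools and were scaled by TMM and fitted over all 11 pools with the quasi-likelihood test of edgeR 4.0.16 in R 4.3.3, with p-values adjusted by Benjamini-Hochberg over all genes tested and called under 0.05. Levels are TMM-scaled CPM, and log2 CPM uses a prior count of 2. Lengths come from GENCODE vM21, which is on GRCm38 as mm10 is, and promoter windows from RefSeq. Chromosome 18 was left out for the proteasome genes only, and the shares over all promoter windows were not filtered in this way. limma 3.58.1 (voom) and DESeq2 1.42.0 were alternatives, and correlations were computed with numpy 2.4.6. The fitting scripts were tested on simulated data. Pools of 1 group differed by more than sampling noise (chi-square per degree of freedom 21.2 to 67.2), so none was counted as a repeat.

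Members, roles and gene lists were chosen with earlier results of these data known. Full statistics are given for Psmb5 to Psmb10, Psme1 and Psme2 in each comparison and for any other member with an unadjusted p under 0.05; genes of the other lists are named where they passed the adjusted threshold, together with Xbp1 and Ern1. A planned relation across pools and certain genes of the lists are not reported here. Psmc5, Psmd1, Psmd11, Psmc1, Psmc4, Tap1, Nlrc5 and the list genes at an unadjusted p under 0.05 were named after their values were seen. The floor of 3 counts covers counting error only, and the intervals of fold changes rest on the spread between pools.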

Additional observations from a re-analysis of the deposited data

Results flagged for a closer look

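Over 98 groups of 4 pools (49 genes in control and in XBP1ΔDC), 3 held a pool far from the other 3 by Dixon's criterion, or 3.06%, where chance flags about 1 in 20. Psmb7 was at 104 CPM in control replicate 4, below the other control pools. Psmg2, a chaperone of core assembly, was at 32.5 CPM in control replicate 4, above the other control pools. Psmg1, its partner, was at 19.6 CPM in XBP1ΔDC replicate 3, above the other XBP1ΔDC pools. Control replicate 4 is the control pool that also carried floxed Ern1 alleles.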

How the results depend on the processing

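No proteasome gene passed an adjusted p under 0.05 in any comparison under any of 19 settings, where the smallest adjusted p was 0.179. Counts of proteasome genes at an unadjusted p under 0.05 moved. The share of all genes at that threshold was taken in the main edgeR fit only. It was 7.62% in XBP1ΔDC against control, 11.2% in XBP1ΔDCIRE1truncDC against control and 5.29% between the mutant groups. The counts of the other settings have no such share beside them, so they cannot be read as particular to the proteasome genes. In XBP1ΔDC against control the count of 1 became 0 with limma voom, DESeq2, DESeq2 size factors, no filter or a replicate block, and was 0 to 2 with each pool left out in turn. In XBP1ΔDCIRE1truncDC against control the count of 2 became 4 with DESeq2, 4 with library size scaling and 0 with a replicate block, and was 1 to 8 with pools left out, the 8 without XBP1ΔDCIRE1truncDC replicate 1. Between the mutant groups it was 0 to 2 with pools left out. Over all genes at 1.5-fold and adjusted p under 0.05, XBP1ΔDCIRE1truncDC against control gave 23, and 94 with DESeq2, 15 with only the 2 groups compared, 11 with the block and 12 to 23 with pools left out. XBP1ΔDCIRE1truncDC against XBP1ΔDC gave 8, and 36 with DESeq2, 3 with the block and 4 to 10 with pools left out. The cause of these shifts was not tested.

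The deviations of same-numbered pools correlated at -0.26 to 0.133 (mean -0.0259), and those of differently numbered pools at -0.202 to 0.307 (mean 0.0087). Every same-numbered pair of control and XBP1ΔDC was positive, at 0.0418 to 0.133. Same-numbered pairs with XBP1ΔDCIRE1truncDC ran from -0.26 to 0.0270. This check cannot exclude that replicate numbers pair the pools, and the main fit uses no pairing. With the replicate block Psmb10 in XBP1ΔDCIRE1truncDC against XBP1ΔDC turned to -0.0219.

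Over all 49 genes the sign turned in at least 1 setting for 20 in XBP1ΔDC against control, 29 in XBP1ΔDCIRE1truncDC against control and 33 between the mutant groups, among them, against control in XBP1ΔDCIRE1truncDC, Psmd12 (-0.0427 to 0.301), Psmd14 (-0.0190 to 0.189) and Psma8 (-1.08 to 0.685). Psme2 kept its sign, at 0.0832 to 0.277, 0.239 to 0.469 and 0.0349 to 0.280 in the same comparisons, and Psme1 at 0.0572 to 0.169, 0.120 to 0.243 and 0.00358 to 0.129. Of the catalytic genes, in XBP1ΔDC against control Psmb8 became -0.00104 with limma voom, and Psmb9 0.0184 and Psmb5 0.00398 with library size scaling. With pools left out Psmb8 ran from -0.0446 to 0.0651, Psmb9 from -0.0578 to 0.0394 and Psmb5 from -0.0759 to 0.0437. In XBP1ΔDCIRE1truncDC against control Psmb9 ran from -0.0402 to 0.108, Psmb5 from -0.0497 to 0.130 and Psmb7 from -0.0301 to 0.195. Between the mutant groups Psmb9 ran from -0.0332 to 0.117, Psmb10 from -0.0575 to 0.144, Psmb5 from -0.0275 to 0.148, Psmb6 from -0.122 to 0.0633 and Psmb7 from -0.157 to 0.0709.

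The log2 ratios within pairs moved with the length, in the order control, XBP1ΔDC, XBP1ΔDCIRE1truncDC. With coding length they were 4.20, 4.22 and 4.21 for Psmb8 to Psmb5, 1.78, 1.63 and 1.71 for Psmb9 to Psmb6 and 0.33, 0.47 and 0.54 for Psmb10 to Psmb7. With the principal transcript, chosen after seeing the data, they were 3.41, 3.43 and 3.41, then 0.94, 0.79 and 0.88, then 0.13, 0.27 and 0.35.

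The alternative values were also counted by outcome. Beside counts, medians and ratios, this count took fold changes only of Psmb5 to Psmb10, Psme1, Psme2 and members at an unadjusted p under 0.05. Of the values so counted, 669 kept direction and side of the threshold or stayed within the spread, 55 moved and 28 turned sign. The sign turns over all 49 genes, given above, are not in this count.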

Other observations

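Ccr7, the chemokine receptor of mature dendritic cells, was set against the 6 catalytic subunits and the 2 PA28 genes over the 11 pools in log2 CPM, by Pearson's r and Spearman's rho with two-sided permutation tests of 100000 resamples, a choice made after seeing the data. Psme1 gave r = 0.83 (permutation p = 0.00185, adjusted over 8 relations 0.0074; rho = 0.66, permutation p = 0.0311, adjusted 0.125) and Psme2 gave r = 0.84 (permutation p = 0.00146, adjusted 0.0074; rho = 0.79, permutation p = 0.00543, adjusted 0.0434). Without control replicate 2 and XBP1ΔDCIRE1truncDC replicate 3, the 2 pools farthest from the Ccr7 median, r was 0.70 (permutation p = 0.0343) and 0.75 (permutation p = 0.0213). On deviations from the group means r was 0.74 (permutation p = 0.0125) and 0.75 (permutation p = 0.0093). The permutations moved these deviations freely between groups, although their means had been removed by group, so these p-values can be too small. Psmb10 gave r = 0.60 (permutation p = 0.0526, adjusted 0.14; rho = 0.45, permutation p = 0.164). The other 5 genes, among them Psmb8 and Psmb9, gave r between -0.27 for Psmb5 and 0.32 for Psmb8, with permutation p of 0.336 or more.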
